A study of Mus musculus with 8 samples.

Results

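The semaphorins, plexins and neuropilins are a family of guidance ligands and their receptors, and 31 of the 23413 gene symbols in the deposited table belonged to it. Members were the symbols made of Sema and a digit, those starting with Plxn, and Nrp1 and Nrp2, which gave 20 semaphorins, 9 plexins and 2 neuropilins. RNA had been sequenced in 8 mouse libraries: 3 of bone-marrow macrophages, 2 of wild-type microglia and 3 of repopulating microglia. The series title names the role of interleukin-1 signals in how microglia, the resident macrophages of the brain, renew and maintain themselves. Bone-marrow macrophages and repopulating microglia carry the strain label DTRmg and wild-type microglia the label DTR, so strain and cell group cannot be told apart in comparisons with wild type. The genotype label repeats the cell group, and the labels name neither the promoter that drives the toxin receptor nor the age of the mice at collection. One protocol text stands on every sample, wild type included: subcutaneous tamoxifen (2 mg, on days 12 and 14 after birth) and 3 injections of 500 ng diphtheria toxin to deplete microglia. Cells were freed from brain with papain, enriched on Percoll and sorted by flow cytometry. Whether the bone-marrow macrophages came from marrow or brain, and whether replicates were separate mice, is not stated. Each p-value therefore reflects variation among these libraries alone, part of which may be technical. The columns of the bone-marrow macrophages are headed mono and were assigned by exclusion, and those of the wild-type microglia are headed ctrl.

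Semaphorins are named for a shared sema domain, through which they bind the same kind of domain in plexins. Class 3 members are secreted and mostly need a neuropilin beside the plexin, whereas classes 4 to 6 span the membrane and class 7 is held by a lipid anchor. The cytoplasmic part of a plexin switches off small GTPases of the Ras family, which loosens adhesion and reshapes the actin skeleton. In the immune system Sema4a, Sema4d and Sema7a act on lymphocytes and macrophages, and in the brain the family steers axons, vessels and migrating cells.

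Total reads ran from 5918944 to 12476427 per library, and values are normalised counts, meaning gene counts that the authors divided by a size factor per library. Differences are on the log2(normalised count + 1) scale with the standard error of the fit, and the adjusted p is that of limma over all 11415 genes tested, two-sided, after Benjamini-Hochberg. Repopulating replicate 3 stood apart from replicates 1 and 2 over all genes (r of 0.938 and 0.918 with them, against 0.979 between those), so values without it are given where they matter. Sall1, a transcription factor that defines microglia, was at 35.8, 9.55 and 15.0 in the bone-marrow macrophages, against 3179.8 and 4056 in wild-type and 2594, 1864 and 6101 in repopulating microglia. Tmem119, another microglial marker, was at 10110.2, 9461 and 11341 in the bone-marrow macrophages, lower than in microglia but far from absent. It was at 33850.0 and 36041 in wild-type and 26586, 19383 and 29806 in repopulating microglia. Summed levels of 10 microglial markers were 134752 to 146473, 480532 to 511548 and 322061 to 380905 in the same order of groups. By group means Siglech, Olfml3 and Csf1r were higher in repopulating than in wild-type microglia. The other markers were lower, Sall1 within its spread and Cx3cr1 at 21834 against 66246. Summed levels of 9 neutrophil markers were 26054 to 28324 in wild-type microglia, 1593 to 3032 in repopulating microglia and 790.1 to 1320.1 in the bone-marrow macrophages, with none of the 9 at 0 in any group. In bulk libraries such as these, fewer cells of a type and less RNA per cell cannot be told apart. The 3 comparisons share their samples and are not independent of each other.

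Of the 31 members, 18 reached 10 normalised counts in 2 or more libraries and were tested. Between bone-marrow macrophages and wild-type microglia 11 were called at an adjusted p under 0.05, which is 61.1% of the 18 tested (35.5% of all 31) beside 43.5% of all genes tested. They were 7 higher in the macrophages (background 21.3%) and 4 lower (background 22.2%). Between repopulating microglia and bone-marrow macrophages 14 were called, 6 higher (background 16%) and 8 lower (background 14.9%) in repopulating cells, or 77.8% of the 18 tested (45.2% of all 31) beside 30.9%. Scaling every library to the same total shifted the all-gene median of that comparison from 0.00 to -0.25, and the 14 became 4 higher and 9 lower. Between repopulating and wild-type microglia 5 were called, 3 higher (background 4.86%) and 2 lower (background 3.75%), or 27.8% of the 18 tested (16.1% of all 31) beside 8.61%. Those 5 all lost the call without wild-type replicate 1 or 2, or when only these 2 groups were fitted. In the fit of these 2 groups alone, 0.683% of all genes tested were called. Without repopulating replicate 3 the members called became 7 higher and 3 lower, while the share over all genes tested rose from 8.61% to 26.2%. The 18 tested members had median log2 differences of 0.23, 0.09 and 0.38 in the order above, beside -0.01, 0.00 and -0.02 for all genes tested. No set test was made. Passing the filter favours members that are high in 1 group.

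**Figure D1:**
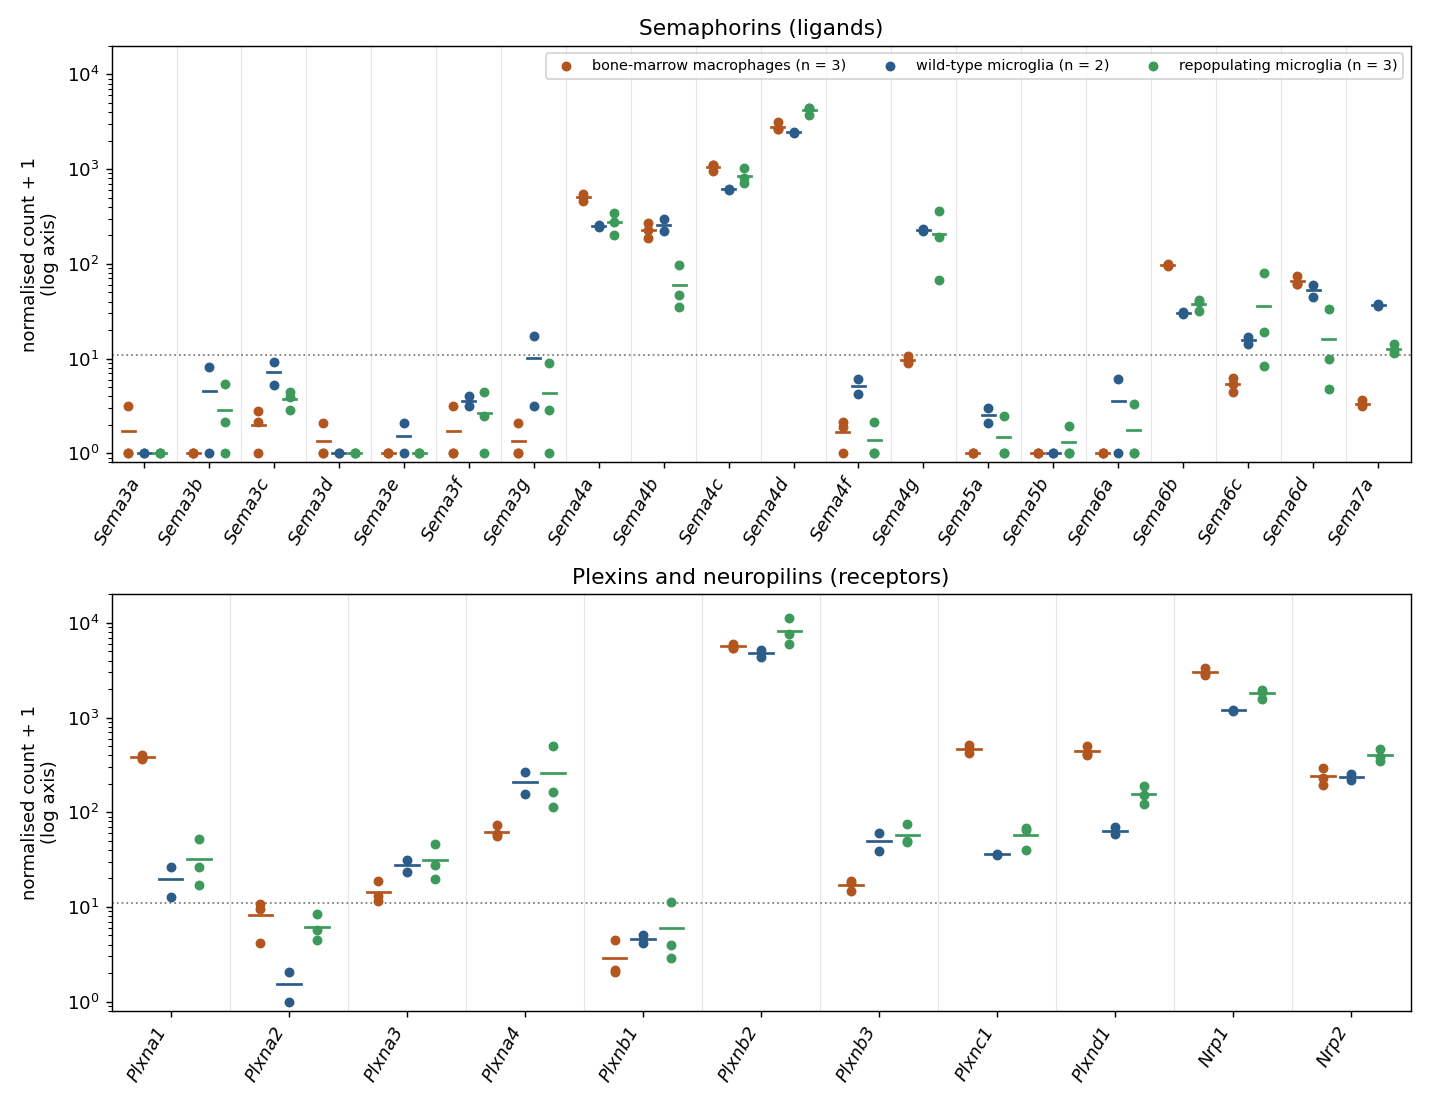
Normalised count plus 1 (log axis) of all 31 members in each library. Points are libraries, short bars are group means, and the dotted line is a normalised count of 10. The secreted class 3 semaphorins lie below that line in every library but 1 (Sema3g, wild-type replicate 2), while Sema4d, Plxnb2 and Nrp1 lie above 1000 in all 8.

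Secreted semaphorins were close to the detection limit. The 7 class 3 genes (Sema3a to Sema3g) together had 10 reads in the 3 bone-marrow macrophage libraries, 43 in the 2 wild-type and 24 in the 3 repopulating libraries. Sema3g, which held the most, reached 2.14 and 16.3 normalised counts in the wild-type libraries, 1.89, 0 and 8.06 in the repopulating and 0, 1.06 and 0 in the bone-marrow libraries. Endothelial markers, 8 in number, summed to 427 to 667 in wild-type and 89.7 to 453 in repopulating microglia. In the bone-marrow macrophages they summed to 55.1 to 71.1. Repopulating replicate 3, at 453, exceeded wild-type replicate 1, at 427. By group means Pecam1, Cldn5, Slco1a4, Esam, Tek and Emcn were highest in wild-type microglia, and Pecam1 was the largest part there (mean of 319). Cdh5 was instead highest in repopulating microglia and Flt1 in the bone-marrow macrophages. The part of endothelial cells in these traces was not tested. Sema4f, Sema5a, Sema5b, Sema6a, Plxna2 and Plxnb1 make up the other 6 members left untested, with 12, 4, 1, 7, 43 and 27 reads over all 8 libraries. Sema5b had 1 read, in a repopulating library. Plxna2 had the most reads of these 6, at 8.52, 3.18 and 9.70 normalised counts in the bone-marrow macrophages, 1.07 and 0 in wild-type and 4.72, 7.38 and 3.46 in repopulating microglia. In each library 3 reads, the most that a count of 0 allows, were worth 1.70 to 4.43 normalised counts, and these limits cover counting error only, since the reads carried no molecular identifiers.

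Plxnb2, Sema4d and Nrp1 held the largest share of the plexin, semaphorin and neuropilin transcripts in all 3 groups. Per kilobase of merged exon, which is the scale for comparing genes, Plxnb2 was at 729.8 ± 35.6 normalised counts (SD) in bone-marrow macrophages, 616 ± 73.5 in wild-type and 1072 ± 345 in repopulating microglia. It took 82.1, 80.8 and 81.1% of the summed plexin level per kilobase in the bone-marrow libraries, 93.8 and 93.7% in the wild-type and 95.2, 93.0 and 94.7% in the repopulating libraries. Among semaphorins, Sema4d took 45.5, 49.1 and 49.6% in bone-marrow macrophages, 53.5 and 52.5% in wild-type and 68.5, 65.5 and 62.0% in repopulating microglia. These shares did not overlap between groups, and the repopulating libraries were the highest. Sema4c came next, at 31.5, 29.3 and 29.2% in the bone-marrow libraries, 22.9 and 21.4% in the wild-type and 18.2, 23.5 and 24.3% in the repopulating libraries. Nrp1 took 95.0, 93.1 and 93.6% of the neuropilin level in bone-marrow macrophages, 86.7 and 85.1% in wild-type and 85.5, 87.4 and 80.3% in repopulating microglia. In wild-type microglia the order per kilobase ran from Plxnb2 through Sema4d (318 ± 4.77), Sema4c (133 ± 2.74), Nrp1 (122 ± 1.22), Sema4a (46.3 ± 1.08) and Sema4b (45.5 ± 9.50), of which Sema4a and Sema4b lay within their spread. The length used sets part of this order: by its longest transcript Nrp1 stood at 327 in wild-type microglia, above Sema4c at 157.

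**Figure D2:**
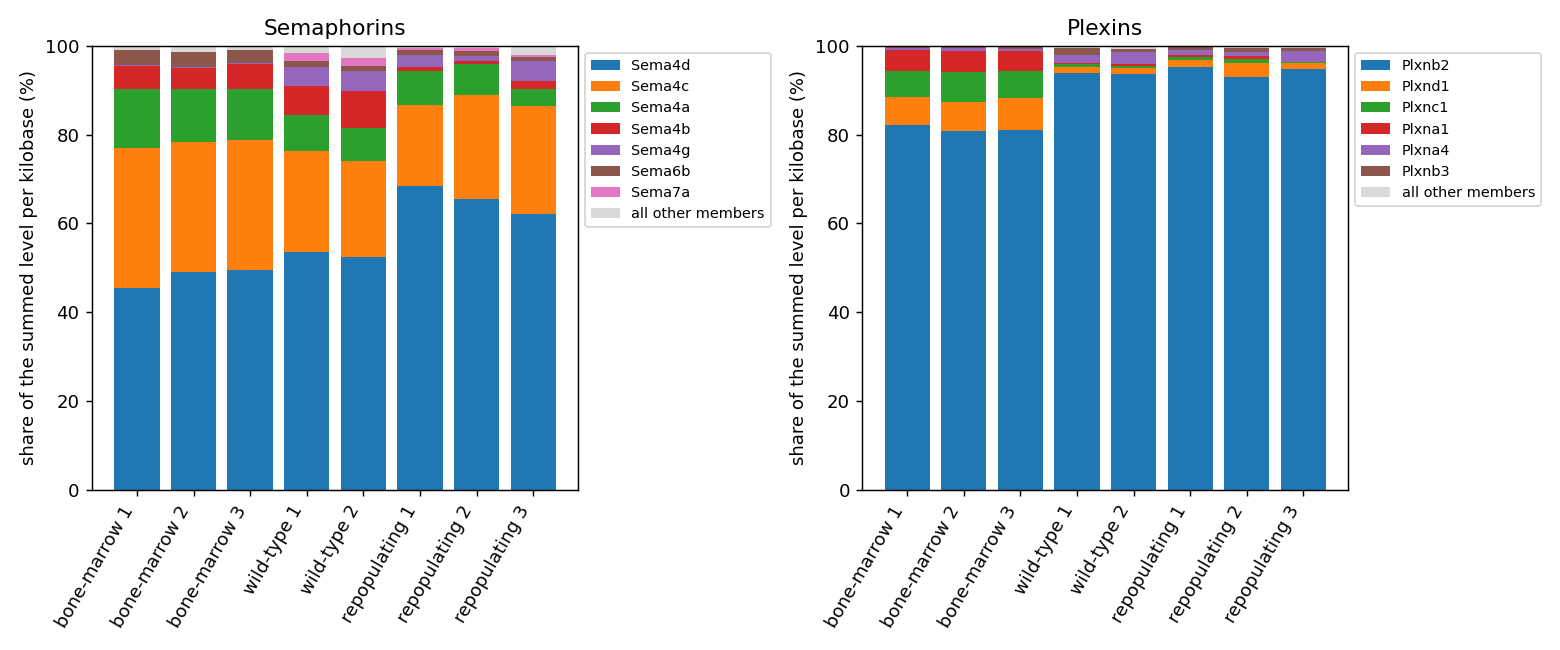
Share of the summed level per kilobase of merged exon that each semaphorin (left) or plexin (right) took in each library, in percent. Sema4d fills 62.0% to 68.5% of the repopulating bars and 45.5% to 53.5% of the others, and Plxnb2 fills more than 80% of every plexin bar.

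Sema4d, also called CD100, is a ligand of plexin-B1 and, on immune cells, of Cd72. It lies in GRCm38 (mm10) on chromosome 13, 51685529 to 51793747, minus strand. Its normalised counts were 2635, 2651 and 3164 in the bone-marrow macrophages, 2416 and 2468 in wild-type and 4433, 3747 and 4429 in repopulating microglia. All 3 repopulating libraries exceeded every other library. Against wild type it rose by 0.78 ± 0.14 on the log2 scale (limma adjusted p = 0.0154), from 2442 ± 36.6 (SD, n = 2) to 4203 ± 395 (SD, n = 3). Against bone-marrow macrophages it was higher by 0.58 ± 0.13 (limma adjusted p = 0.00871), a call lost with equal totals (log2 0.33, adjusted p = 0.0828) or quantile normalisation (log2 0.33, 0.115). The rise over wild type lost its call when wild-type replicate 1 or 2 was left out (adjusted p = 0.151 and 0.106).

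Sema4b (chromosome 7, 80186841 to 80226527, plus strand), a class 4 semaphorin, was the one member called lower in repopulating microglia than in both other groups. Its levels were 46.3, 33.9 and 95.6 normalised counts in repopulating microglia, 219 and 295 in wild-type microglia and 225, 188 and 272 in the bone-marrow macrophages. The highest repopulating library, replicate 3, was still below the lowest of the others. Sema4b fell by 2.23 ± 0.39 on the log2 scale against wild type (limma adjusted p = 0.0137) and was lower than in bone-marrow macrophages (log2 -2.06 ± 0.35, adjusted p = 0.00241). Wild-type microglia and bone-marrow macrophages overlapped (log2 -0.17 ± 0.39, adjusted p = 0.741). This fall against wild type was lost with wild-type replicate 1 or 2 left out (adjusted p = 0.1 and 0.114). The neutrophil marker sums given above were also lower in repopulating than in wild-type libraries, and lowest in the bone-marrow libraries. By group means Elane and Mpo were instead lowest in repopulating microglia, at 0.944 and 2.56 against 6.91 and 23.8 in bone-marrow macrophages. The part of neutrophils in the level of Sema4b was not tested.

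Sema4a (chromosome 3, 88435959 to 88461182, minus strand), which costimulates T cells, and Sema4c (chromosome 1, 36548639 to 36558349, minus strand), a ligand of plexin-B2, were highest in bone-marrow macrophages. Sema4a was at 544, 458 and 512 normalised counts there, at 254 and 246 in wild-type and at 347, 276 and 202 in repopulating microglia. It exceeded wild type by 1.01 ± 0.22 on the log2 scale (limma adjusted p = 0.00609), and repopulating microglia were below bone-marrow macrophages (log2 -0.91 ± 0.19, adjusted p = 0.00782). The 2 microglial groups overlapped, at log2 0.10 ± 0.22 (adjusted p = 0.799). Sema4c was at 1093, 947 and 1115 in the bone-marrow macrophages, 619.7 and 602 in wild-type and 706, 803 and 1039 in repopulating microglia. Bone-marrow macrophages exceeded wild type by 0.78 ± 0.17 (adjusted p = 0.00738, or 0.0529 without wild-type replicate 2). Repopulating replicate 3 reached into the range of the bone-marrow libraries, and without it Sema4c was called lower in repopulating cells than there (log2 -0.48, adjusted p = 0.00415), as it was with equal totals (log2 -0.58, adjusted p = 0.0373). With all libraries that difference was -0.32 ± 0.16 (adjusted p = 0.153). Without strand, reads of Sema4c cannot be told apart from those of D430040D24Rik, an RNA on the other strand that covers 7.27% of its exon bases.

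Sema4g and Sema7a were the 2 ligands called lower in bone-marrow macrophages than in both kinds of microglia. Sema4g (chromosome 19, 44989101 to 45003397, plus strand), which binds plexin-B2, was at 221 and 234 normalised counts in wild-type microglia, 189.8, 66.4 and 361 in repopulating microglia and 7.96, 8.48 and 9.70 in the bone-marrow macrophages. Every microglial library exceeded every bone-marrow library, with repopulating replicate 2 the lowest of the 5 and replicate 3 the highest. The log2 difference of bone-marrow macrophages from wild type was -4.56 ± 0.57 (limma adjusted p = 0.000394) and that of repopulating microglia from bone-marrow macrophages 4.11 ± 0.51 (adjusted p = 0.000484). Repopulating and wild-type microglia overlapped (log2 -0.45 ± 0.57, adjusted p = 0.642).

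Sema7a (chromosome 9, 57940112 to 57962865, plus strand), the lipid-anchored ligand of plexin-C1 and of integrins that contain the beta 1 chain, fell into 3 separate levels. It was at 35.3 and 36.6 normalised counts in wild-type microglia, 11.3, 13.3 and 10.4 in repopulating microglia and 2.27, 2.12 and 2.65 in the bone-marrow macrophages, and no 2 groups overlapped. The bone-marrow values rest on 9 reads in 3 libraries. They were below wild type (log2 -3.47 ± 0.38, limma adjusted p = 0.000194), and repopulating microglia were above them (log2 1.92 ± 0.34, adjusted p = 0.00288). Between the microglial groups Sema7a fell by 1.55 ± 0.38 (adjusted p = 0.0391), but that call was lost without any 1 library other than repopulating replicate 3, and without a filter on low values (0.0551). Leaving out wild-type replicate 1 or 2 gave an adjusted p of 0.253 or 0.208, and it was 0.0914 and 0.0574 without repopulating replicates 1 and 2, and 0.0761, 0.0652 and 0.0665 without bone-marrow replicates 1, 2 and 3. Neutrophil markers moved the same way between the microglial groups, and their part was not tested.

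Class 6 ligands differed from one another. Sema6b (chromosome 17, 56123085 to 56140343, minus strand), which binds plexin-A4, was at 99.4, 94.4 and 96.1 normalised counts in the bone-marrow macrophages, 29.9 and 28.5 in wild-type and 40.6, 38.4 and 31.1 in repopulating microglia, with little spread in any group. Bone-marrow macrophages exceeded wild type by 1.69 ± 0.22 on the log2 scale (limma adjusted p = 0.000449), and repopulating microglia were below them (log2 -1.38 ± 0.19, adjusted p = 0.000941). Sema6d (chromosome 2, 124089969 to 124667770, plus strand), a ligand of plexin-A1, was at 60.2, 74.2 and 60.8 in the bone-marrow macrophages, 43.8 and 59.0 in wild-type and 3.78, 8.86 and 32.3 in repopulating microglia. All repopulating libraries were below the others, replicates 1 and 2 far more than replicate 3. Against bone-marrow macrophages the log2 difference of -2.50 ± 0.60 was called (adjusted p = 0.0131, or 0.052 without bone-marrow replicate 2). Against wild type the difference of -2.16 ± 0.67 was not (adjusted p = 0.0826), although without repopulating replicate 3 it was -2.92 with an adjusted p of 0.000107. Sema6c was at 3.41, 5.30 and 4.41 in the bone-marrow macrophages, 16.0 and 13.2 in wild-type and 17.9, 7.38 and 78.3 in repopulating microglia, and passed in no comparison, with adjusted p = 0.0516 for repopulating microglia against bone-marrow macrophages and 0.146 for bone-marrow macrophages against wild type. Replicate 3 held most of the repopulating Sema6c. The first was called by edgeR's quasi-likelihood test (adjusted p = 0.0225) and DESeq2 (0.00191) on recovered reads. Without replicate 2 it was called by limma as well (log2 2.87, adjusted p = 0.00819), and without replicate 3 the second (log2 -1.55, 0.0146).

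Among receptors, Plxna1, Plxnc1 and Plxnd1 were far higher in bone-marrow macrophages than in either kind of microglia. Plxna1 (chromosome 6, 89316314 to 89362620, minus strand), a receptor for Sema6d that pairs with Trem2 and Tyrobp on dendritic cells and osteoclasts, was at 367, 374 and 401 normalised counts in the bone-marrow macrophages, 11.8 and 25.4 in wild-type and 25.5, 51.7 and 16.1 in repopulating microglia. Every bone-marrow library was above every microglial one. The log2 difference from wild type was 4.38 ± 0.46 (limma adjusted p = 0.000166), and that of repopulating microglia from bone-marrow macrophages -3.73 ± 0.41 (adjusted p = 0.000269). An antisense RNA, Gm26811, covers 10.7% of the exon bases of Plxna1, and without strand its reads cannot be told apart.

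Plxnc1 (chromosome 10, 94790866 to 94944835, minus strand), the receptor of Sema7a, was at 425, 507 and 479 normalised counts in the bone-marrow macrophages, 35.3 and 34.6 in wild-type and 63.3, 66.4 and 39.2 in repopulating microglia. It exceeded wild type by 3.71 ± 0.24 on the log2 scale in bone-marrow macrophages (limma adjusted p = 1.94e-05), and repopulating microglia were below those (log2 -3.07 ± 0.22, adjusted p = 3.53e-05). By group means the order of Plxnc1 was the reverse of that of its ligand Sema7a. Plxnd1 (chromosome 6, 115954811 to 115995005, minus strand), the receptor of Sema3e, was at 406, 415 and 495 in the bone-marrow macrophages, 57.7 and 68.1 in wild-type and 123, 190.4 and 151 in repopulating microglia, without overlap between any groups. Bone-marrow macrophages exceeded wild type by 2.78 ± 0.21 (adjusted p = 3.41e-05), and repopulating microglia were below bone-marrow macrophages (log2 -1.51 ± 0.19, adjusted p = 0.000511). Against wild type Plxnd1 rose in repopulating microglia by 1.27 ± 0.21 (adjusted p = 0.0119), from 62.9 ± 7.37 (SD, n = 2) to 155 ± 34.0 (SD, n = 3), a call lost without wild-type replicate 1 (0.13) or 2 (0.0661). Border-associated macrophage markers were 10 in number, none at 0 in a whole group. They summed to 2757 to 3398 in wild-type microglia, 4773 to 7374 in repopulating microglia and 17575 to 20359 in the bone-marrow macrophages. This sum had the same order as Plxnd1, and Stab1 was its largest part (means of 1985, 4181 and 10005). By group means Stab1, Siglec1, Mrc1, Pf4 and Folr2 had that order. F13a1 (404, 112 and 406), Cd163, Cbr2, Lyve1 and Cd209f did not. The part of such cells in the levels of Plxnd1 was not tested.

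Plxna1 and Plxnc1 stood at log2 0.65 ± 0.46 and 0.64 ± 0.24 between repopulating and wild-type microglia and were not called (limma adjusted p = 0.4 and 0.142). Without repopulating replicate 3, the lowest of its group for both, they were called higher, at log2 1.03 and 0.87 (adjusted p = 0.048 and 0.00272). Ms4a7, a marker of macrophages from marrow, was also lower in that replicate, at 320.2, 645 and 28.8 in repopulating replicates 1 to 3 against 107 and 146 in wild-type microglia and 1255, 1693 and 1209 in the bone-marrow macrophages. Summed over all 10 markers of recruited monocytes and macrophages, the range was 4148 to 16536 in repopulating microglia, 15652 to 19494 in wild-type microglia and 38092 to 49488 in the bone-marrow macrophages, with none at 0 in a whole group. By group means Ms4a7, Clec12a, Itga4 and Ifitm3 were higher in repopulating than in wild-type microglia. Ccr2, Ly6c2, F10, Lyz2, Plac8 and Ms4a3 were lower, Ly6c2 at 16.8 against 1111. The part of recruited cells in these receptor levels was not tested.

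Upstream DNA is shown for the members called between bone-marrow macrophages and wild-type microglia that have 1 start site in the RefSeq promoter table and no annotated exon in the 250 bases before it. Of the 31 members 26 had an entry, and 4 met both conditions: Nrp1, Plxnc1 and Plxnd1, which were higher in bone-marrow macrophages, and Sema7a, which was lower. Each runs 5′ to 3′ toward the start site in GRCm38.p6, with capitals on matches to the purine-rich core GAGGAA on either strand, the core letters bound by the myeloid factor PU.1. The regions are chr8:128358823-128359072, plus strand for Nrp1, chr10:94944846-94945095, minus strand for Plxnc1, chr6:115995006-115995255, minus strand for Plxnd1 and chr9:57939862-57940111, plus strand for Sema7a. The GENCODE span of Nrp1 starts at 128358604, so its window is upstream of the RefSeq start but inside that span.
Nrp1: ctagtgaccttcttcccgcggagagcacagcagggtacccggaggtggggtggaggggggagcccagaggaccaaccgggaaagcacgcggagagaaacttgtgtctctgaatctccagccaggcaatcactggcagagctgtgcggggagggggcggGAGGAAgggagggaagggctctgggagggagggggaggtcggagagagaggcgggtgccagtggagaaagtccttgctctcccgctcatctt
Plxnc1: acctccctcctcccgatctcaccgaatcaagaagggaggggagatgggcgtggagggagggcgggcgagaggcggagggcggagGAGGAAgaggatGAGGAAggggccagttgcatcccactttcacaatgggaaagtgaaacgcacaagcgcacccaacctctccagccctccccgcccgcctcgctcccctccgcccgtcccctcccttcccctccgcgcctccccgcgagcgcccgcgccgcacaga
Plxnd1: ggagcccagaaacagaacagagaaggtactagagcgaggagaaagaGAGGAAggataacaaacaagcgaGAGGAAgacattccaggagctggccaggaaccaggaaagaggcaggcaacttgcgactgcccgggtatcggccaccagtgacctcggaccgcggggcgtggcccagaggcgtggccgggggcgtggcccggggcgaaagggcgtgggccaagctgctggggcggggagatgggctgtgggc
Sema7a: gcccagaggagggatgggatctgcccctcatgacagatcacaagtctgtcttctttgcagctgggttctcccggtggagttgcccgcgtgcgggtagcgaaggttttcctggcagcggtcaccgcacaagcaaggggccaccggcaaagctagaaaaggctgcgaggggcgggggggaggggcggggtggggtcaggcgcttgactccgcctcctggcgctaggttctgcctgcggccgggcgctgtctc
Plxnc1 and Plxnd1 held 2 such matches each, Nrp1 held 1 and Sema7a none. Plxnb3 and Sema4g, both lower in bone-marrow macrophages, also had 1 start site but 13 and 243 exon bases in the window. They are not printed and held 1 match each, so the matches did not divide the members by direction. Of all 32851 promoter windows of 250 bases, 23.3% held at least 1, and of the 37 windows of members 12 did. The longer form GAGGAAGT, whose first letters are the same core, was in 2.44% of all windows and in none of the members', and TGANTCA, the site of AP-1, was in 6.75% of all and in 3 of the members', those of Sema4c, Sema4d and Sema6b. All motifs were read on both strands and chosen with the results known, the shorter core last. They describe these letters and no binding was measured.

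Plxna4 and Plxnb3 went the other way and were lower in bone-marrow macrophages than in microglia. Plxna4 (chromosome 6, 32144268 to 32588192, minus strand), a receptor for Sema6b and, with a neuropilin, for class 3 ligands, was at 156 and 263 normalised counts in wild-type microglia, 164, 112 and 504 in repopulating microglia and 54.6, 72.1 and 58.2 in the bone-marrow macrophages. Every bone-marrow library was below every microglial one, and repopulating replicate 3 was the highest of all. The log2 difference of bone-marrow macrophages from wild type was -1.71 ± 0.54 (limma adjusted p = 0.0321) and that of repopulating microglia from bone-marrow macrophages 1.77 ± 0.49 (adjusted p = 0.0244). Both calls were lost without bone-marrow replicate 1 (adjusted p = 0.0845 and 0.0816), 2 (0.0601 and 0.056) or 3 (0.0838 and 0.0787), and the first also without wild-type replicate 1 (0.069) or 2 (0.199), with equal totals (0.0547) or without a variance trend (0.0511). Plxnb3 (chromosome X, 73757090 to 73772514, plus strand), a receptor for Sema5a, was at 59.8 and 37.6 in wild-type microglia, 49.1, 47.2 and 74.9 in repopulating microglia and 13.6, 17.0 and 17.6 in the bone-marrow macrophages. It was lower in bone-marrow macrophages than in wild type (log2 -1.51 ± 0.32, adjusted p = 0.0057, or 0.0643 without wild-type replicate 1) and higher in repopulating microglia than in bone-marrow macrophages (log2 1.74 ± 0.29, adjusted p = 0.00214).

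Plxna3, which serves Sema3f together with Nrp2, passed in no comparison. Its levels were 11.9, 10.6 and 17.6 normalised counts in the bone-marrow macrophages, 22.4 and 30.5 in wild-type and 18.9, 26.6 and 44.9 in repopulating microglia, so the bone-marrow libraries were the lowest here too. The log2 difference was -0.95 ± 0.42 from wild type (limma adjusted p = 0.0963) and 1.06 ± 0.37 for repopulating microglia from bone-marrow macrophages (adjusted p = 0.0621). The first was called without repopulating replicate 3 (adjusted p = 0.0326) and the second without replicate 1 (0.0409). The second was also called with quantile normalisation (0.0382) and the first with only the groups compared (0.0334). Plxnb2 (chromosome 15, 89155549 to 89180788, minus strand), the most abundant member, was at 5491, 5461 and 5951 in the bone-marrow macrophages, 4351 and 5154 in wild-type and 7549, 6051 and 11232 in repopulating microglia. No groups overlapped, yet no comparison passed: the log2 difference of repopulating from wild-type microglia was 0.76 ± 0.24 (adjusted p = 0.0837), that from bone-marrow macrophages 0.51 ± 0.21 (0.103) and that of bone-marrow macrophages from wild type 0.25 ± 0.24 (0.415). Replicates 2 and 3 lay at the ends of the repopulating range, and leaving out either gave a call against wild type (log2 0.96 and 0.51, adjusted p = 0.0335 and 0.014), as did DESeq2 with all libraries (0.0207). Without replicate 2 the difference from bone-marrow macrophages was called as well (log2 0.71, adjusted p = 0.0227).

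Nrp1 (chromosome 8, 128358604 to 128503363, plus strand), the receptor part for Sema3a and for VEGF, took 3 separate levels. It was at 2988, 3307 and 2782 normalised counts in the bone-marrow macrophages, 1846, 1969 and 1573 in repopulating and 1185 and 1202 in wild-type microglia. Bone-marrow macrophages exceeded wild type by 1.34 ± 0.14 on the log2 scale (limma adjusted p = 0.000165), and repopulating microglia were below them (log2 -0.75 ± 0.13, adjusted p = 0.00227). In repopulating microglia Nrp1 rose by 0.58 ± 0.14 over wild type (adjusted p = 0.0391), from 1193 ± 11.9 (SD, n = 2) to 1796 ± 202 (SD, n = 3). That rise was called without repopulating replicate 3 and lost without any other single library or without a variance trend (0.0735). Leaving out wild-type replicate 1 or 2 gave an adjusted p of 0.248 or 0.179, and it was 0.0973 and 0.0758 without repopulating replicates 1 and 2, and 0.0855, 0.0662 and 0.0677 without bone-marrow replicates 1, 2 and 3. The sum of the border-associated macrophage markers given beside Plxnd1 stood in the same order of groups as Nrp1, without overlap. Not all of these markers had that order, and their part was not tested.

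Nrp2 (chromosome 1, 62703285 to 62818695, plus strand), the receptor part for Sema3f, did not follow Nrp1. Repopulating microglia were highest, at 379, 344 and 468 normalised counts, against 220.1 and 254 in wild-type microglia and 192, 296 and 229 in the bone-marrow macrophages. The last 2 groups overlapped, at a log2 difference of -0.01 ± 0.21 (limma adjusted p = 0.981). Nrp2 was higher in repopulating microglia than in bone-marrow macrophages by 0.74 ± 0.19 (adjusted p = 0.0187), a call lost without bone-marrow replicate 1 (0.0824) or 3 (0.0669) and with equal totals (log2 0.49, 0.0982). The difference of 0.73 ± 0.21 from wild type was not called (adjusted p = 0.0711), but was by DESeq2 (0.0279) and without repopulating replicate 3 (log2 0.61, adjusted p = 0.0327).

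**Figure D3:**
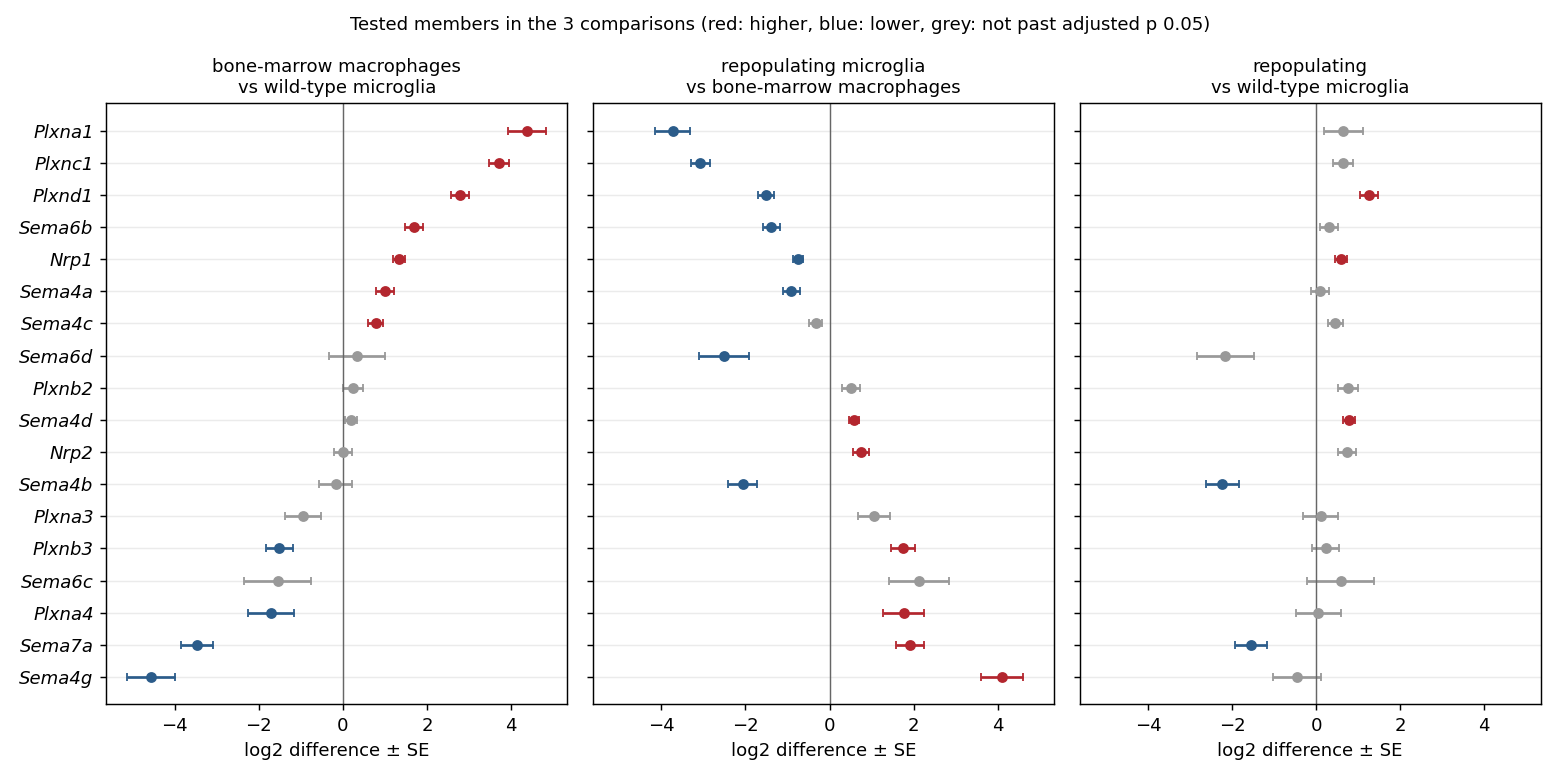
Log2 difference of the 18 tested members in the 3 comparisons, first group minus second, with bars for the standard error of the limma fit. Red is higher and blue lower at an adjusted p under 0.05, and grey was not called. Plxna1, Plxnc1 and Plxnd1 lie farthest to the right and Sema4g and Sema7a farthest to the left in the first panel, and 5 members are coloured in the third.

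**Figure D4:**
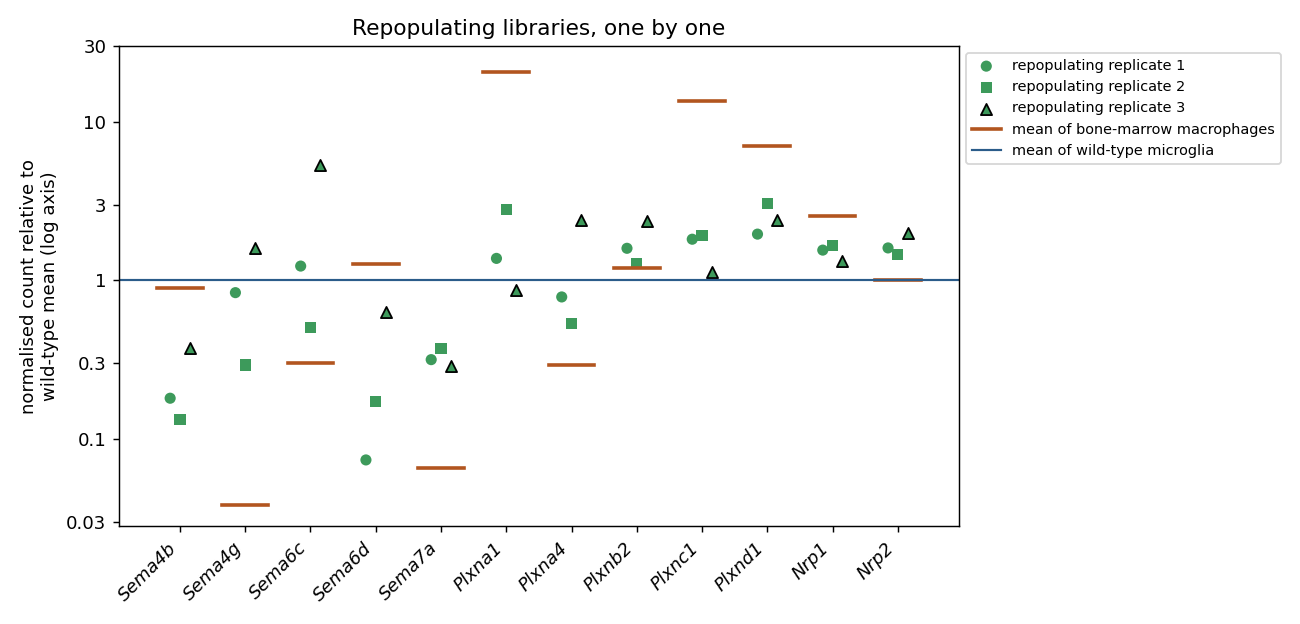
Normalised counts of 12 members in the 3 repopulating libraries, divided by the wild-type mean (log axis). The long line is the wild-type mean, at 1, and short bars are the mean of bone-marrow macrophages. The triangle of replicate 3 is the highest of the 3 symbols for Sema4b, Sema4g, Sema6c, Sema6d, Plxna4, Plxnb2 and Nrp2. It is the lowest for Sema7a, Plxna1, Plxnc1 and Nrp1. Sema7a, Nrp1 and Nrp2 keep the 3 replicates close together.

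Genes that act with the family were followed in 5 lists of 67 symbols, 65 of them in the table and 49 tested. Between bone-marrow macrophages and wild-type microglia 10 were called higher and 9 lower, 38.8% of those tested beside 43.5% of all genes tested, with a median log2 difference of 0.03 beside -0.01 for all genes tested. Between repopulating microglia and bone-marrow macrophages 10 were higher and 7 lower (34.7% beside 30.9%, median -0.02 beside 0.00), and between repopulating and wild-type microglia 3 were higher and 3 lower (12.2% beside 8.61%, median 0.26 beside -0.02). All or nearly all of these calls were lost without wild-type replicate 1 or 2. The 3 and 3 became 11 and 5 without repopulating replicate 3, where the share over all genes tested rose from 8.61% to 26.2%.

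Among co-receptors, 10 of 15 were tested. Cd72, the Sema4d receptor of immune cells, was at 213 and 188 normalised counts in wild-type microglia, 558, 753 and 385 in repopulating microglia and 642, 571 and 734 in the bone-marrow macrophages. Like its ligand it rose in repopulating microglia over wild type (log2 1.44 ± 0.26, limma adjusted p = 0.0147, a call lost without wild-type replicate 1 or 2), and it was higher in bone-marrow macrophages too (log2 1.69 ± 0.26, adjusted p = 0.00111). Trem2, the lipid receptor that joins plexin-A1 on myeloid cells, was lower in bone-marrow macrophages, where Plxna1 was high, at 5157, 5778 and 6047 against 14325 and 11896 in wild-type and 12369.9, 11317 and 12703 in repopulating microglia (log2 -1.21 ± 0.15 from wild type, adjusted p = 0.000367). Tyrobp, its signalling adaptor, was at 9093, 9211 and 10777 in the bone-marrow libraries, 9372 and 7864 in the wild-type and 13937, 14766 and 11578 in the repopulating libraries and passed only in repopulating microglia against bone-marrow macrophages (log2 0.47 ± 0.15, adjusted p = 0.043), a call lost without any 1 library other than repopulating replicate 3 (adjusted p up to 0.502 over all alternatives). Kdr, a VEGF receptor that works with neuropilins, was at 157, 102 and 128 in repopulating microglia, 38.5 and 69.1 in wild-type microglia and 20.5, 7.42 and 20.3 in the bone-marrow macrophages, and the difference of repopulating microglia from bone-marrow macrophages was 3.03 ± 0.41 (adjusted p = 0.000748). L1cam, an adhesion molecule that binds Nrp1, fell against wild type from 15.0 and 11.2 to 0.944, 1.48 and 1.15 (adjusted p = 0.0149). The repopulating values are 1 read in each of 3 libraries, and without wild-type replicate 1 or 2 L1cam missed the filter and was not tested. Timd2, a receptor for Sema4a, was at 0 in all 8 libraries.

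Of 6 VEGF-family symbols only Vegfb was tested, and it was higher in repopulating microglia than in bone-marrow macrophages (log2 0.48 ± 0.14, limma adjusted p = 0.0312). That call was lost without bone-marrow replicate 1 or 2, wild-type replicate 1 or 2 or repopulating replicate 1, and with equal totals (adjusted p up to 0.279). Small GTPases and their regulators, 17 tested, were called lower in 5 cases and higher in none in bone-marrow macrophages against wild type, 29.4% beside 43.5% of all genes tested. In repopulating microglia against bone-marrow macrophages 4 were higher and none lower, 23.5% beside 30.9%, so both shares lay below the background. Rras2, a Ras-family protein of the kind that plexins switch off, was at 75.6, 61.5 and 58.2 normalised counts in the bone-marrow macrophages, 269 and 317 in wild-type and 405, 489 and 213 in repopulating microglia (log2 -2.16 ± 0.32 from wild type, adjusted p = 0.000994). Mras, a relative, was at 26.7, 33.9 and 52.0 in the bone-marrow libraries, 188 and 257 in the wild-type and 125, 91.5 and 203 in the repopulating libraries (log2 -2.57 ± 0.38, adjusted p = 0.00091). Farp1, an exchange factor that binds class A plexins, was nearly absent from bone-marrow macrophages, at 0.568, 3.18 and 1.76 against 22.4 and 38.6 in wild-type and 38.7, 25.1 and 72.6 in repopulating microglia (6 reads in 3 libraries, log2 -3.54 ± 0.58 from wild type, adjusted p = 0.00158). Rnd3, a GTPase of the Rnd group, whose members bind plexins, fell in repopulating microglia from 50.2 and 34.6 to 7.56, 4.43 and 8.06 (log2 -2.51 ± 0.46, adjusted p = 0.0159, or up to 0.169 when wild-type replicate 1 or 2 or the bone-marrow group was left out).

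Cytoplasmic effectors, 17 tested, were higher in 6 cases and lower in 2 in bone-marrow macrophages against wild type, 47.1% beside 43.5% of all genes tested, a share near the background. Mical1 and Mical2, flavin enzymes that oxidise actin, were among the 6. Mical2 was at 119.9, 81.7 and 90.8 normalised counts in the bone-marrow macrophages, 6.41 and 14.2 in wild-type and 15.1, 23.6 and 11.5 in repopulating microglia, with log2 3.19 ± 0.41 from wild type (limma adjusted p = 0.000475). Mical1 was at 519, 477 and 548 in the bone-marrow libraries, 155 and 98.6 in the wild-type and 164, 207 and 356 in the repopulating libraries (log2 2.05 ± 0.32, adjusted p = 0.0012). Dpysl2, also called CRMP2 and known from the response of axons to Sema3a, was lower in both DTRmg groups than in wild type. Its levels were 543 and 517 in wild-type microglia, 201, 213 and 267 in repopulating microglia and 177, 172 and 241 in the bone-marrow macrophages (log2 -1.23 ± 0.20 and -1.44 ± 0.20, adjusted p = 0.0102 and 0.000635). Fyn, a kinase bound by class A plexins, rose in repopulating microglia from 153 and 181 to 332, 273 and 373 (log2 0.95 ± 0.20, adjusted p = 0.023). The call of Fyn was lost without wild-type replicate 1 or 2, repopulating replicate 1 or bone-marrow replicate 2, and that of Dpysl2 in repopulating microglia without wild-type replicate 1 or 2 (adjusted p up to 0.206 and 0.114). Of the 4 proteases tested, 3 were higher in bone-marrow macrophages than in wild type, where 21.3% of all genes tested were higher. Of the 20 alternatives, Furin kept that call in 11, Adam17 in 17 and Mmp14 in 20. Mmp14, which can release Sema4d from the cell surface, was at 2032, 2228 and 2261 in the bone-marrow macrophages, 337 and 424 in wild-type and 865, 716 and 762 in repopulating microglia. It rose by 1.04 ± 0.15 between the last 2 (adjusted p = 0.00668), a call lost without wild-type replicate 1.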

How the data were processed

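The table deposited by the authors holds a normalised signal, namely read counts over genes scaled by 1 size factor for each library. Dividing by what 1 read is worth gave whole numbers for 100% of nonzero entries (tolerance 0.01), so reads could be recovered. The submitters' processing notes name TopHat2 2.0.10, HTSeq, Bowtie2 2.1.0.0 and DESeq 1.14.0, with mm10 as build. For the annotation and strand setting, the sources used here give nothing. The TruSeq version 2 kit named in the labels does not mark strand.

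The 11415 genes that reached 10 in 2 or more libraries entered, as log2(normalised count + 1), one limma 3.58.1 model (R 4.3.3) over all 8 libraries with a variance trend and an adjusted p threshold of 0.05. Alternatives, 20 in number, were 2 pseudocounts, 2 filters, 3 scalings, the groups compared alone, the replicate number as a block, no trend, edgeR 4.0.16 and DESeq2 1.42.0 on recovered reads, and fits without each library. The members and lists were chosen with earlier results of these data known. Values in every library are given for members called in any comparison and the 8 with the highest mean, and up to 4 called genes per partner list and comparison. Coordinates are from GENCODE vM21 (GRCm38), where all 31 members had 1 locus, and promoters from RefSeq. Figures used matplotlib 3.10.9.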

Additional observations from a re-analysis of the deposited data

How the results depend on the processing

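Of the 30 member calls over the 3 comparisons, none changed direction under any of the 20 alternatives. Both count tests kept all 30, with 1 more call by edgeR and 3 more by DESeq2. Members called in repopulating against wild-type microglia, 3 higher and 2 lower, became 0 and 0 with only the groups compared. The 2 lower became 1 without a filter or with the replicate block, where Sema7a lost its call. They also became 1 with a filter of 50, since Sema7a did not reach that filter and was not tested. The 3 higher became 5 with DESeq2. Leaving out 1 library gave 0 to 7 higher and 0 to 3 lower there. It gave 6 to 7 higher and 2 to 6 lower in bone-marrow macrophages against wild type, and 4 to 8 higher and 7 to 9 lower in repopulating microglia against bone-marrow macrophages. With 1 wild-type library left, its spread is assumed to be that of the other groups. Over all genes tested, the share called in repopulating against wild-type microglia was 8.61% in the main fit. It was 26.2% without repopulating replicate 3 and 14.3% with DESeq2. The replicate block lost 1 of the 30 calls, that of Sema7a in repopulating against wild-type microglia, and added 3: Plxna3 in bone-marrow macrophages against wild type (log2 -1.21, limma adjusted p = 0.0318), and Plxna3 (1.06, 0.0373) and Sema6c (2.13, 0.0399) in repopulating microglia against bone-marrow macrophages. Same-numbered libraries had correlations of deviations from -0.24 to 0.24, and the labels do not tie them together, so they were not treated as pairs. With equal totals 27 of 30 calls held, and of all genes called in repopulating microglia against bone-marrow macrophages 28.6% were higher in place of 51.8%. Of all calls in repopulating against wild-type microglia 37.8% were then higher in place of 56.5%. In bone-marrow macrophages against wild type the share was 59.2% in place of 49.0%. At the shallowest depth, 5918944 reads, 3 reads were worth 4.43 normalised counts, which limits the 13 untested members.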

Other observations

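Repopulating replicate 3 lay farthest from the middle of its group for 13 of the 18 tested members (72.2%), beside 61.5% of all 11415 genes tested. It was the highest of the 3 for 10 members, 55.6% beside 41.9%, and the lowest for 6, 33.3% beside 43.7%. Sema4g, Sema6c, Plxna4 and Plxnb2 were among those highest in it and Plxna1, Plxnc1 and Sema4a among those lowest, and no test was made of these shares.

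Ligands and receptors known to bind each other did not share one pattern across the groups. Sema7a and Plxnc1 were in opposite order by group means. Sema6d was at 60.2, 74.2 and 60.8 normalised counts in the bone-marrow libraries and 43.8 and 59.0 in wild-type microglia. Its receptor Plxna1 was at 367, 374 and 401 and at 11.8 and 25.4 in those groups. In repopulating microglia Sema6d was at 3.78, 8.86 and 32.3 and Plxna1 at 25.5, 51.7 and 16.1. Both were called lower there than in bone-marrow macrophages. Sema4d and Cd72 were both called higher in repopulating than in wild-type microglia, calls lost without wild-type replicate 1 or 2. Sema4c and Sema4g, which both bind plexin-B2, differed in which group held more. By group means bone-marrow macrophages held the most Sema4c and the least Sema4g. Sema4c overlapped between bone-marrow macrophages and repopulating microglia and was not called there (limma adjusted p = 0.153). Plxnb2 itself was called in no comparison. Sema6b and Plxna4 were also opposite, Sema6b being highest and Plxna4 lowest in bone-marrow macrophages. Protein was not measured.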
